A study of Mus musculus with 46 samples.

Results

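Thbd, Nts, Pde1a and Serpinb9 are 4 of the 37108 genes measured by RNA-seq while mouse embryonic fibroblasts (MEF) were reprogrammed toward induced pluripotent stem cells (iPSC). The members were chosen from measured values of these same libraries, as genes whose level was kept or raised with native Nanog and low with an engineered Nanog, so that contrast is described below without a test and supports nothing by itself. The rule carried no numerical limit, and all 4 symbols were found in both deposited tables (4 of 35976 genes once transcripts were summed). Reprogramming was driven by retroviral Oct4 together with native Nanog (NanogWT) or with NanogBiD, named NanogN70 in the labels, a Nanog fused to the BRG1-interacting stretch of the chromatin remodelling subunit SS18. Both combinations started from MEF of embryos that carry the OG2 Oct4-GFP reporter, and D0 is the end of the viral infection.

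The 31 time-course libraries covered D0, D1 and D3, then D5 and D7, and after the change of medium D8, D10 and D12, with 2 replicates per combination and day except 1 for NanogBiD on D8. MEF (n = 2) and mouse embryonic stem cells (mES, n = 1) were the references. The mES are labelled OG2 and, per the study's methods, also came from OG2 mice. A table of transcripts held 12 iPSC samples, 6 per combination, labelled iPSC1 or iPSC2, together with MEF and mES. These labels are called lines below. What they stand for is not given, and the same label under NanogWT and NanogBiD need not mean a shared origin. By their labels, samples 1# (passage 5) and 1#-2 (passage 6) of NanogWT iPSC1 may come from 1 clone, and they are counted as separate samples below. The cells were kept in iCD3 medium and moved to N2B27 with 2iL at about D7, per the study's methods. Nothing in the labels says that replicates came from separate cultures, so every spread and p-value below measures these samples only.

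The 4 genes act in unrelated pathways. Thbd encodes thrombomodulin, a membrane glycoprotein best known on endothelium, which binds thrombin and turns it from a clotting enzyme into an activator of protein C. Nts encodes the precursor of neurotensin, a peptide that is cut out by prohormone convertases, stored in granules of neurons and gut endocrine cells, and read by the receptors Ntsr1 and Ntsr2 and by the sorting receptor Sort1. Pde1a encodes a phosphodiesterase that calcium and calmodulin switch on and that breaks down cyclic nucleotides, with cGMP as its favoured substrate. Serpinb9 encodes an intracellular serpin that traps granzyme B, the killing protease of cytotoxic lymphocytes.

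In the mm10 build (GENCODE M21) Thbd is a gene without introns on chromosome 2 (148404466 to 148408188, minus strand). Pde1a lies on the same chromosome (79834453 to 80129458, minus strand), spans 295006 bases and has 10 annotated transcripts of 3 to 16 exons. Nts is on chromosome 10 (102481756 to 102490486, minus strand) with 4 exons, and Serpinb9 is on chromosome 13 (33003250 to 33017957, plus strand). No annotated gene overlaps any of them on either strand. Reads could be shared with another gene over little of their length, since 0 of the 50-base stretches of Thbd, Nts and Pde1a transcripts and 0.378% of those of Serpinb9 (13 of 3442, all with Serpinb9b) occur in a transcript of another gene.

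The 250 bases before the RefSeq start site (GRCm38.p6) are shown for 3 of the members, since no window was available for Thbd. The 3 are set side by side because Nts and Pde1a were both high with NanogWT from D3 to D7 and low from D8 on, and Serpinb9 was not. Capitals mark a match, on either strand, to one of 6 motifs searched. These were the AP-1 letters TGANTCA, the cyclic AMP element TGACGTCA, the TEAD letters GGAATG, the octamer ATGCAAAT, the TATA box as TATAAA and the GC box as GGGCGG. The sequences run 5′ to 3′ on the gene's own strand.
Nts, chr10:102490419-102490668, minus strand: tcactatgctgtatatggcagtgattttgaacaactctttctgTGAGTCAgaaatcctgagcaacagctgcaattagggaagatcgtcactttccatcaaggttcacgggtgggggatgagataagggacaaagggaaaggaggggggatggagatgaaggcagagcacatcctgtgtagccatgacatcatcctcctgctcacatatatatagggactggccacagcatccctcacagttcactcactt
Pde1a, first of 4 starts, chr2:80129413-80129662, minus strand: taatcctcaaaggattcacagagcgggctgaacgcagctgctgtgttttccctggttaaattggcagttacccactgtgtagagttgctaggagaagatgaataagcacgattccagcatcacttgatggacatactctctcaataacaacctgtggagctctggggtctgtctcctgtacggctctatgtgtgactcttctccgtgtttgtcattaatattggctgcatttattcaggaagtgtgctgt
Pde1a, second start, chr2:80128972-80129221, minus strand: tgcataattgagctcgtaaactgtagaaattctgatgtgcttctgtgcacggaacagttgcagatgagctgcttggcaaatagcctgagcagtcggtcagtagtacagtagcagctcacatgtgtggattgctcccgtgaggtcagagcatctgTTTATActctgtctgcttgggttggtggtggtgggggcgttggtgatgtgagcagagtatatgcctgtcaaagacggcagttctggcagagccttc
Serpinb9, chr13:33004291-33004540, plus strand: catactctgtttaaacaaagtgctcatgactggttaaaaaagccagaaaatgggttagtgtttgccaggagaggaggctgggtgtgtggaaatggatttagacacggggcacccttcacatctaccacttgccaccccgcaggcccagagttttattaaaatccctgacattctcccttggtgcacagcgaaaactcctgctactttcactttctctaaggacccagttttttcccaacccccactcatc

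The Nts window held the AP-1 letters TGAGTCA at 207 bases before the start, which 6.75% of 32851 windows of this length hold, and none of the other 5 motifs. The second Pde1a window held the TATA box letters on the opposite strand at 96 bases before the start (12.4% of all windows). No letters of the 6 motifs were found in the first Pde1a window or in that of Serpinb9. The windows of the other 2 Pde1a starts held the TEAD letters at 163 and 65 bases before the start (12.6% of all windows), and the latter also held the TATA box letters on the opposite strand. A match is only a match of letters.

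Total FPKM (fragments per kilobase of gene model, scaled to the library's size) per time-course library ranged from 370030 to 462190. Relative depth, read from the smallest values of each library, was 0.791 to 1.07 in all libraries except the 6 NanogWT libraries of D8 to D12, which were 1.81 to 3.11 times as deep as the median of the D5 and D7 libraries. Depth and the change of medium cannot be told apart between D7 and D8 with NanogWT, nor depth and combination from D8 on. The 12 fibroblast markers summed to 5843 to 6858 FPKM in MEF and to 11.8 in mES, and the 8 pluripotency markers to 6.11 to 8.77 and 3647, so both references bore the markers of their labels. Over the time course the fibroblast sum with NanogBiD was 2394 to 2709 at D0, then 832 to 1115 from D3 through D7, and 309 to 1004 over the last 3 days. With NanogWT it was 2405 to 2912, 1459 to 1772 and 2664 to 3663 in the same periods. The pluripotency sum reached 354 to 2157 with NanogBiD and 2.90 to 216 with NanogWT at D8 to D12. In bulk samples, fewer cells of a type and less RNA per cell cannot be told apart, and the part of these mixtures in the members' levels was not tested.

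The members followed 3 different courses with NanogWT. Thbd had group means of 21.97 to 50.7 FPKM on all days, Serpinb9 had means of 5.25 to 10.5 to D7 and was 9.45-fold above its D7 level at D12, and Nts and Pde1a were high for a few days and then low. The wording kept or raised therefore holds to D12 for Thbd and Serpinb9. It does not hold for Nts after D8, and Pde1a with NanogWT was at D12 far under its D7 level yet above D0 without overlap. With NanogBiD all 4 ended at no more than 2.38 FPKM at D12.

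**Figure D1:**
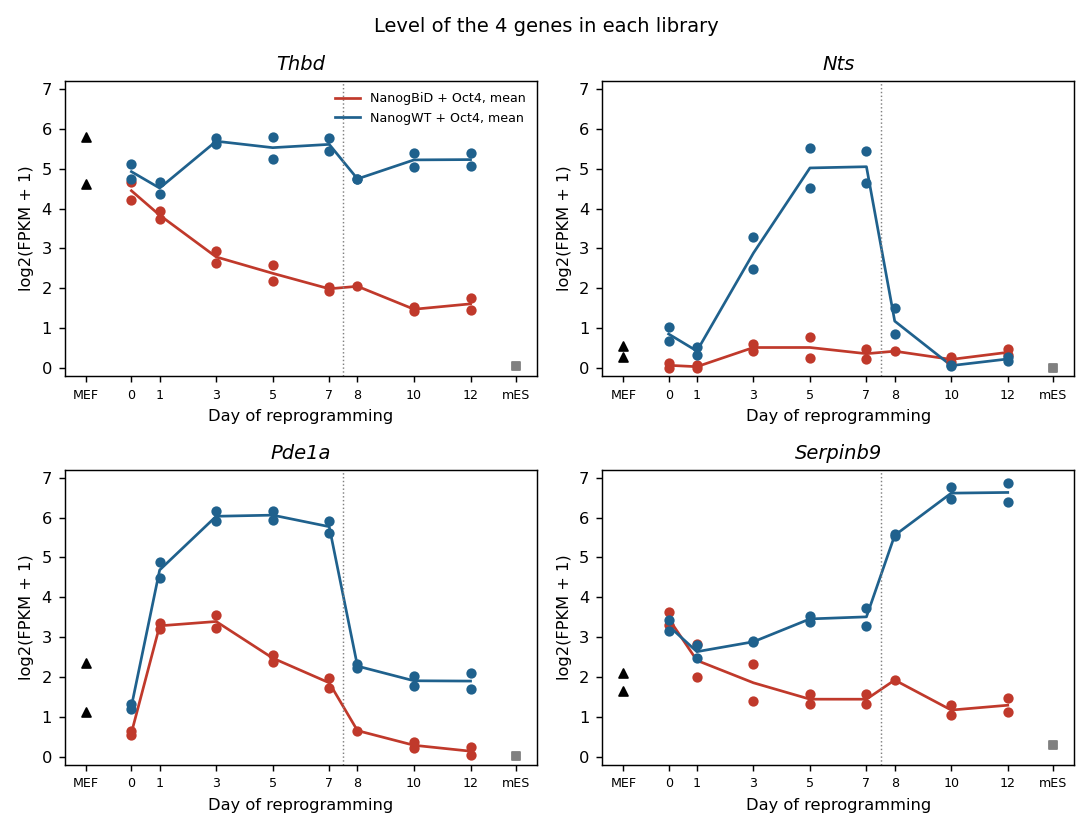
Level of each gene as log2(FPKM + 1) in every library against the day of reprogramming. Points are libraries, lines join the means, triangles are the 2 MEF libraries, the square is mES and the dotted line marks the change of medium at about D7. Thbd and Serpinb9 stay apart between the combinations to D12, while Nts and Pde1a with NanogWT drop between D7 and D8.

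Thbd, the thrombomodulin gene, was at 17.7 and 24.4 FPKM with NanogBiD and at 25.7 and 33.7 with NanogWT at D0, against 54.1 and 23.5 in MEF. At D1 it was at 14.2 and 12.4 with NanogBiD and 19.6 and 24.3 with NanogWT. At D3 the levels were 5.21 and 6.66 against 48.1 and 53.3. The combinations did not overlap on any of these days, and the gap was small before D3 and wide from then on.

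At D5 Thbd was at 3.51 and 4.97 FPKM with NanogBiD and at 37.1 and 54.9 with NanogWT. At D7 it was at 3.11 and 2.83 against 42.8 and 53.5. The D7 difference was -3.62 on the log2(FPKM + 1) scale (SE 0.16, n = 2 per combination), a 16.2-fold ratio of the mean FPKM. After the change of medium the NanogWT level was lower at D8, at 25.8 in both replicates, and then 31.9 and 41.4 at D10 and 32.5 and 41.0 at D12. With NanogBiD it was 3.14 at D8, 1.87 and 1.69 at D10 and 2.38 and 1.76 at D12. The NanogWT libraries of D0 and D12 overlapped, with means of 29.7 and 36.8, and the D12 libraries were the deeper ones. The mES library held 0.0370.

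Nts, the neuropeptide precursor, had a pulse with NanogWT. The D0 libraries held 1.03 and 0.609 FPKM and the D1 libraries 0.432 and 0.261. The level was then 4.58 and 8.77 on D3, 21.9 and 44.9 on D5, and 24.05 and 42.8 on D7. At D8 it was back at 0.793 and 1.85, at D10 at 0.0535 and 0.0322 and at D12 at 0.125 and 0.218. On both high days replicate 2 held more than replicate 1, and the libraries of D5 and D7 overlapped.

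With NanogBiD no library exceeded 0.703 FPKM of Nts, and 2 of the 15 were at 0. These values rest on very little material. The 23 low values above 0 were all within 0.2 of a whole number of steps of 0.04835 FPKM at relative depth 1, and no NanogBiD library held more than 15 such steps. How many reads make a step is not known. A ratio of FPKM is for that reason not given, and the log2 differences were -2.37 (SE 0.41) at D3, -4.50 (SE 0.56) at D5 and -4.69 (SE 0.42) at D7, n = 2 per combination. At D10 and D12 NanogBiD was the higher of the combinations, at 0.108 and 0.217 against 0.0535 and 0.0322 at D10, and at 0.244 and 0.386 against 0.125 and 0.218 at D12, with all values near the lowest steps. MEF held 0.474 and 0.205, and mES was listed at 0.

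Pde1a, the calmodulin-dependent phosphodiesterase, was the only member that was also higher with NanogBiD at D1 than at D0. At D0 it was at 0.555 and 0.469 FPKM with NanogBiD and at 1.30 and 1.5 with NanogWT. At D1 it was at 9.26 and 8.25 against 28.7 and 21.3, so the D0 to D1 step was 17.8-fold with NanogWT. At D3 it was at 8.36 and 10.8 against 70.6 and 58.8. The start was thus shared by both combinations, at unequal height.

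From D3 to D7 the combinations went apart. Pde1a was at 4.23 and 4.90 FPKM with NanogBiD and 71.3 and 60.7 with NanogWT at D5, and at 2.30 and 2.96 against 48.1 and 59.8 at D7. The D7 difference was -3.92 (SE 0.20, n = 2 per combination), a 20.5-fold ratio. At D8 the NanogWT level was 3.66 and 4.01, which is 14.1-fold under D7, and it was 3.08 and 2.44 at D10 and 2.26 and 3.26 at D12. With NanogBiD it was 0.574 at D8, 0.289 and 0.155 at D10 and 0.175 and 0.0316 at D12. The D12 difference was -1.76 (SE 0.21), a 26.8-fold ratio that rests on NanogBiD values near 0. The drop between D7 and D8 was therefore seen with both combinations, and NanogBiD stayed under NanogWT on every day.

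Serpinb9, the granzyme B inhibitor, was not lower with NanogBiD at the start. At D0 it was at 8.94 and 11.3 FPKM with NanogBiD and 7.86 and 9.70 with NanogWT, and at D1 at 3.02 and 6.08 against 4.55 and 5.96, and the combinations overlapped on both days. At D3 it was at 1.63 and 3.97 against 6.31 and 6.45, the first day without overlap. At D5 the levels were 1.48 and 1.98 against 9.36 and 10.6, and at D7 1.49 and 1.97 against 8.75 and 12.3.

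The large difference came after D7. With NanogWT Serpinb9 was at 45.3 and 46.7 FPKM at D8, 108 and 87.1 at D10 and 82.8 and 116 at D12. With NanogBiD it was at 2.79 at D8, 1.07 and 1.44 at D10 and 1.17 and 1.76 at D12. The D12 difference was -5.34 (SE 0.30, n = 2 per combination), a 67.8-fold ratio, against -2.07 (SE 0.26) at D7. At D12 the mean NanogWT level ranked 523 of all genes of the table, from 5954 at D7, while mES held 0.230.

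**Figure D2:**
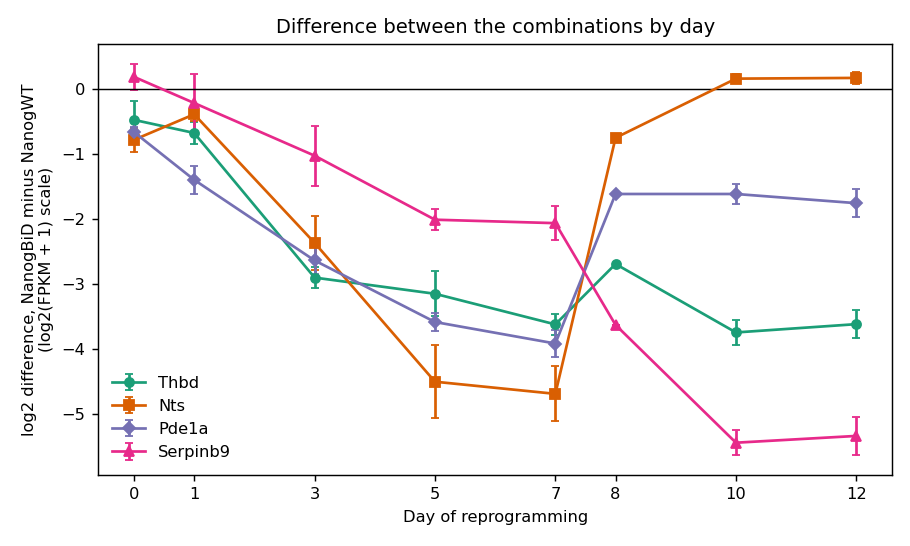
Difference in log2(FPKM + 1) between NanogBiD and NanogWT for each gene against the day, with bars of 1 SE over replicates (no bar at D8, where NanogBiD had 1 library). Thbd is at -2.69 to -3.75 from D3 on, Serpinb9 goes on to -5.44 at D10, and Nts and Pde1a are nearer to 0 after D7, where both combinations are low and the added 1 shrinks the difference (the Pde1a ratio of mean FPKM is 26.8 at D12 and 20.5 at D7).

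Counting members lower by at least 1 on the log2(FPKM + 1) scale with NanogBiD gave 4 of 4 at D5, 4 of 4 at D7 and 3 of 4 at D12, where Nts was the exception. Among all 16915 genes tested, 3.23% were called lower and 3.2% higher with NanogBiD at D5, 4.6% and 5.76% at D7, and 9.91% and 13.4% at D12 (called means an adjusted p under 0.05 in limma and a difference of at least 1 in size on the log2(FPKM + 1) scale). The members' counts asked for no p-value, so the shares of all genes are at a stricter limit. Since the rule used this contrast, nothing is read from the members' counts. The orders of the 18 group means differed between the members. For Thbd the 8 highest groups were 7 NanogWT groups and MEF, each overlapping the next. For Pde1a the NanogWT groups of D5, D3 and D7 led, then NanogWT at D1 stood apart from its neighbours on both sides. For Serpinb9 the groups of D12 and D10 with NanogWT overlapped and stood apart from D8, which stood apart from the rest. For Nts the NanogWT groups of D7 and D5 overlapped and stood apart from D3, and from NanogWT at D8 downward all neighbours overlapped except NanogBiD at D10 and at D0.

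D0 was compared with MEF to ask how far the members had moved by the end of infection, a contrast the rule did not use. Serpinb9 was higher at D0, with all 4 libraries at 7.86 to 11.3 FPKM and MEF at 3.32 and 2.15. The difference of the mean over both combinations from MEF was 1.49 on the log2(FPKM + 1) scale (SE 0.24, limma adjusted p = 0.000101), and among all genes 4.39% were called higher and 4.13% lower. Pde1a was at 0.469 to 1.5 at D0 and at 4.10 and 1.17 in MEF, a difference of -0.81 (SE 0.23, limma adjusted p = 0.0107) that was under the limit of 1 on this scale. Thbd differed by -0.51 (SE 0.24, limma adjusted p = 0.12) and Nts by 0.05 (SE 0.26, limma adjusted p = 0.954), and neither was called. The Thbd and Pde1a values hang on MEF, whose replicates differ more than 2-fold for both genes. Without MEF replicate 2 the difference was -1.10 for Thbd and -1.42 for Pde1a and both were called, and without MEF replicate 1 it was 0.07 and -0.19 and neither was. Infection and the time spent in culture cannot be told apart in this comparison.

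The iPSC samples were passaged cells (passage 2, 5 or 6) and not the cell mixtures of D12. The paper states that native Nanog with Oct4 gave hardly any iPSC, so the NanogWT iPSC need not stand for the NanogWT cells of the time course. The transcript table was used for the iPSC samples, with the transcripts of a gene summed. Nts was at 0 in all 12 iPSC samples and in mES, and at 0.692 and 0.2002 FPKM in MEF. Pde1a was at 0 in 9 of the 12 and at no more than 0.0205 in the other 3, against 6.02 and 2.02 in MEF. For this pair of genes the iPSC samples of both combinations were thus at or near 0, and values this low allow no comparison between the combinations. At D12 the NanogWT libraries of the time course held means of 2.76 FPKM of Pde1a and 0.171 of Nts.

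Thbd was at 40.6 and 18.3 FPKM in MEF. In the 6 NanogBiD iPSC samples it ranged from 0.0268 to 10.1 with a median of 0.251, and in the 6 NanogWT iPSC samples from 0.0265 to 2.74 with a median of 0.331. Serpinb9 was at 4.97 and 3.27 in MEF, at 0.366 to 1.69 (median 0.558) with NanogBiD and at 0.186 to 1.27 (median 0.614) with NanogWT. For both genes the iPSC groups overlapped each other and no iPSC sample reached the lower MEF replicate.

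**Figure D3:**
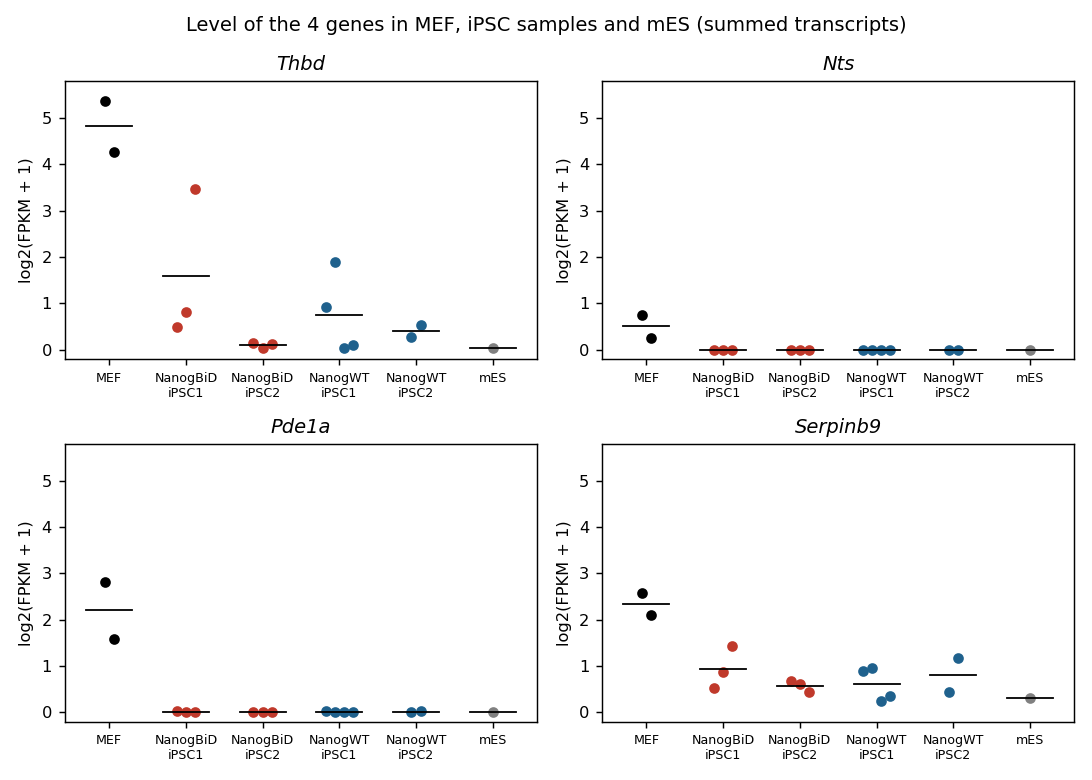
Level of each gene as log2(FPKM + 1) in MEF, in the iPSC samples by combination and line, and in mES, with summed transcripts. Points are samples and bars are means. MEF are highest for every gene, and 1 sample of NanogBiD iPSC1 stands above the other iPSC samples for Thbd.

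In limma, the mean of the 4 iPSC groups minus MEF was -4.11 for Thbd (SE 0.64, adjusted p = 7.84e-05) and -1.6 for Serpinb9 (SE 0.27, adjusted p = 0.000146). Both were called, where 18.8% of the 13312 genes tested were called lower and 21.9% higher. Pde1a passed the filter of 1 FPKM in 2 samples only through MEF, so it had to be lower, and its difference of -2.20 (SE 0.22) is given as a description. Nts did not pass the filter. Between the combinations, with the line as a covariate, Thbd differed by 0.37 (SE 0.50, adjusted p = 0.999) and Serpinb9 by 0.09 (SE 0.22, adjusted p = 0.999), NanogBiD minus NanogWT. An interval of 2 SE ran from -0.62 to 1.37 for Thbd and from -0.34 to 0.53 for Serpinb9, so a Thbd difference of 1 on this scale lies within it. Of 12456 genes tested 0.0% were called (0 genes by limma, 201 at an unadjusted p under 0.05). With samples 1# and 1#-2 of NanogWT iPSC1 averaged, 0 genes were called as well. The iPSC1 samples were at passage 5 or 6 and the iPSC2 samples at passage 2, and the part of passage in any line effect cannot be told apart.

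One sample decided the sign of both differences. Sample 9 of NanogBiD iPSC1 held 10.1 FPKM of Thbd and 1.69 of Serpinb9, the highest of all iPSC samples for both. Its fibroblast markers summed to 1402 FPKM and 10 of the 12 reached 1, against sums of 2.65 to 438 in the other 11 samples. Its pluripotency markers summed to 1882 against 2723 to 5259. Without it the difference was -0.19 for Thbd and -0.07 for Serpinb9.

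The other samples with some Thbd also had fibroblast markers. The 4 iPSC samples with the most Thbd were also the 4 with the highest fibroblast sum, in the same order. They were sample 9 of NanogBiD iPSC1, sample 3 of NanogWT iPSC1 (2.74 FPKM of Thbd, marker sum 438), sample 1 of NanogWT iPSC1 (0.901 and 154) and sample 8 of NanogBiD iPSC1 (0.754 and 123). At the other end, sample 2 of NanogWT iPSC1 held 0.0265 of Thbd with a marker sum of 3.62. The part of the fibroblast markers in the Thbd level was not tested.

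**Figure D4:**
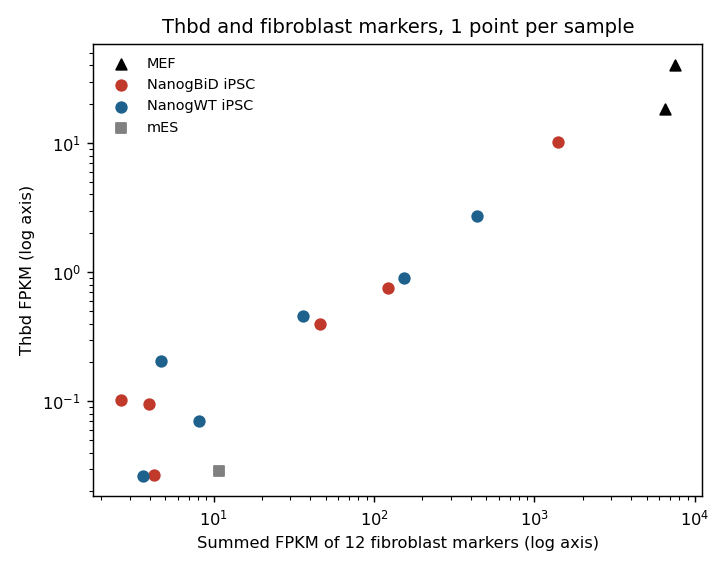
Thbd FPKM against the summed FPKM of the 12 fibroblast markers, both on log axes, with 1 point per sample of the transcript table. The 2 MEF samples lie at the upper right, and sample 9 of NanogBiD iPSC1 (1402 on the horizontal axis, 10.1 on the vertical) lies nearest to them.

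The transcripts behind these sums differed in number. Thbd has 1 RefSeq transcript in the table and Nts has 2, of which 1 was above 0 in MEF. Of 9 Pde1a transcripts 6 were above 0 in MEF and 2 in any iPSC sample. The leading form in MEF was at 3.02 and 0.968 FPKM. Of 6 Serpinb9 transcripts 2 were above 0 in MEF and 3 in any iPSC sample, and 1 carried nearly all of the MEF level, at 4.96 and 3.26.

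Some genes had a course close to that of a member across the 34 libraries of the gene table. They are given as a description, by Pearson r of log2(FPKM + 1) among the 12174 genes that reached 5 FPKM in 2 libraries or more, and libraries of a day share their combination, medium and depth. Thbd was most like Lrrk1 (r = 0.925), Dab2 (0.924), an endocytic adaptor, Kdelc2 (0.922), Poglut3 (0.920) and the collagen receptor Ddr2 (0.918). Kdelc2 and Poglut3 are names of the same gene. Serpinb9 was most like C1rb (0.941), Grin3a (0.941), Gm36181 (0.937), C1ra (0.926) and Casq2 (0.925). C1ra and C1rb encode the complement protease C1r and are near-identical copies, so their split is uncertain, and C1ra was at 111 FPKM with NanogWT and 5.58 with NanogBiD at D12.

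Nts was most like Ifi44 (r = 0.937), Ackr2 (0.935), Mx1 (0.931), Vstm2a (0.915) and Npbwr1 (0.898). Pde1a was most like Artn (0.964), Gm30452 (0.947), Ifi205 (0.938), Mndal (0.938) and Enpp1 (0.935). Ifi44, Mx1, Ifi205 and Mndal are interferon-induced genes. Ifi44 was at 23.1 FPKM with NanogWT and 1.36 with NanogBiD at D7, and at 3.15 with NanogWT at D8. Mx1 was at 6.74 and 0.154 at D7 and at 1.03 with NanogWT at D8. These lists depend on how likeness is measured, since 5 of the 20 genes were still among the first 5 with Spearman rho, 13 with the 31 time-course libraries alone and 7 without the NanogWT libraries of D8 to D12. The members themselves were alike at r = 0.765 for Nts and Pde1a and r = 0.692 for Thbd and Serpinb9, and at 0.117 for Nts and Serpinb9. Without the NanogWT libraries of D8 to D12 these values were 0.763, 0.867 and 0.594.

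The genes next to the members on the chromosome, looked up after the members' values had been seen, had other courses. Sstr4 and Cd93, on the 2 sides of Thbd, never exceeded 1.51 and 1.26 FPKM. Mgat4c and Rassf9 around Nts never exceeded 0.243 and 0.114. Beside Pde1a, Prdx6b stayed at or under 0.0234, and Ppp1r1c was at 5.87 with NanogBiD and 3.52 with NanogWT at D7. At D12 Ppp1r1c was at 0.550 with NanogBiD and 4.80 with NanogWT, so it was then lower with NanogBiD, as Pde1a was. Serpinb6b, on the other side of Serpinb9 from Serpinb9b, was at 1.66 with NanogBiD and 2.06 with NanogWT at D12. Serpinb9b, 9459 bases from Serpinb9 and the gene with which it shares 50-base stretches, was at 2.57 with NanogBiD and 3.36 with NanogWT at D12, where Serpinb9 was at 1.47 and 99.4.

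Genes that work with each member were then compared between the combinations at D5, D7 and D12 in limma. The members are left out of these counts, and the combinations share the fibroblast difference given above. A gene that passed the filter through 1 combination only could hardly be called higher in the other, so the counts by direction are descriptions. Of 30 genes of coagulation, protein C and the plasminogen system, 17 passed the filter. Of these 5 were lower and 0 higher with NanogBiD at D5, 6 and 0 at D7, and 10 and 1 at D12. Over all genes tested the shares called lower were 3.23%, 4.6% and 9.91% on these days, and higher 3.2%, 5.76% and 13.4%. The median difference of the list was -0.79 at D7 and -1.59 at D12, beside 0.08 and 0.17 over all genes tested.

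Among the genes that work closest to thrombomodulin, some were called and some were not. Procr, the protein C receptor, was on D7 at 1.54 FPKM with NanogBiD and 3.72 with NanogWT, a difference of -0.89 on the log2(FPKM + 1) scale (adjusted p = 0.0196) that was under the limit of 1 and so not called. F3, tissue factor, was at 2.12 and 1.99 (adjusted p = 0.922). Pros1, protein S, the cofactor of activated protein C, was called at D7 (141 and 303, -1.10, adjusted p = 0.00038) and at D12 (22.2 and 198, -3.11, adjusted p = 2.41e-10). F2r, the main thrombin receptor, was called at D5 (-1.11, adjusted p = 6e-05) and at D12 (-1.71, adjusted p = 4.08e-08) and not at D7 (-0.81). Pros1 and F2r were chosen after their values were seen. The called genes with the largest differences at D7 were Gas6, a vitamin K-dependent ligand of TAM receptors (7.91 and 41.7, log2 difference -2.25, SE 0.24, adjusted p = 6.58e-07), and Serpind1, heparin cofactor II (0.978 and 8.14, -2.22, SE 0.24, adjusted p = 8.15e-07). Serpine2, an inhibitor of thrombin and plasminogen activators, was at 44.3 and 150 (-1.72, adjusted p = 0.000155). F5, coagulation factor V, was at 0.236 and 3.03 (-1.71, adjusted p = 3.64e-07), and Plau, urokinase, at 6.70 and 17.5 (-1.26, adjusted p = 0.00708). Among MEF and the libraries of D0, D5, D7 and D12, F5 reached 1 FPKM only with NanogWT. It could thus hardly come out higher with NanogBiD, and its difference is a description.

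Thrombomodulin is best known from endothelium, so endothelial markers were counted beside it. Of 8 markers 4 passed the filter, and the counts lower and higher with NanogBiD were 0 and 0 at D5, 1 and 1 at D7 and 1 and 1 at D12. The shares of all genes called were 3.23%, 4.6% and 9.91% lower and 3.2%, 5.76% and 13.4% higher. The endothelial markers summed to 4.83 to 8.25 FPKM with NanogWT and 2.68 to 6.63 with NanogBiD from D3 through D7. From D8 to D12 the sums were 4.63 to 8.79 with NanogWT and 6.61 to 29.7 with NanogBiD, where Thbd was low. The same markers summed to 51.8 in mES and to 1.36 to 1.78 in MEF, so the list is not particular to endothelium in these cells. In the 33 time-course and MEF libraries, in which Thbd reached 54.9, Cdh5, Tie1 and Emcn never exceeded 0.899, 0.0785 and 0.287. In any of these libraries Vwf reached at most 1.03, Esam 2.07, Tek 5.92, Kdr 7.33 and Pecam1 25.6. These maxima need not fall in the libraries with the most Thbd. Among the time-course and MEF libraries, the only marker sum that reached 25.6 was in a NanogBiD library of D12, where Thbd was at 2.38 and 1.76.

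Ntsr1 and Ntsr2 were at or under 0.0628 and 0.124 FPKM in every library, so neither receptor passed the filter. Sort1 was at 36.1 and 39.7 FPKM at D7, a difference that was not called (adjusted p = 0.653). Of 18 tested genes of 22 in the list of receptors, prohormone processing and granules, 0 were called at D5, 2 were lower and 0 higher at D7, and 6 were lower and 4 higher at D12, while calls over all genes numbered 1088, 1752 and 3944 of 16915 on the same days. The list medians were -0.24, -0.26 and -0.33. With a pseudocount of 0.1 or with TPM, 3 genes of the list were already called lower at D5. At D7 the calls were Ece1, an endothelin-converting enzyme that also cuts neurotensin (20.6 and 57.4, log2 difference -1.46, adjusted p = 1.79e-05), and Pcsk2, a convertase (0.960 and 2.99, -1.01, adjusted p = 0.00253). Without NanogWT D7 replicate 1, or without NanogBiD D7 replicate 2, Pcsk2 was no longer called. At D12 the peptidase gene Mme was lower (6.39 and 52.8, -2.85, adjusted p = 8.30e-05), and Pcsk6 (11.8 and 2.17, 2.03, adjusted p = 7.80e-08) and Thop1, which degrades neurotensin (37.5 and 15.5, 1.22, adjusted p = 0.000543), were higher. The 6 neuroendocrine markers summed to 11.8 to 38.4 FPKM with NanogWT and 22.3 to 61.1 with NanogBiD at D3 to D7, the days of the Nts pulse. On each of these days only 1 of the 6 markers reached a mean of 1 FPKM with either combination, so the sums rest largely on 1 gene.

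**Figure D5:**
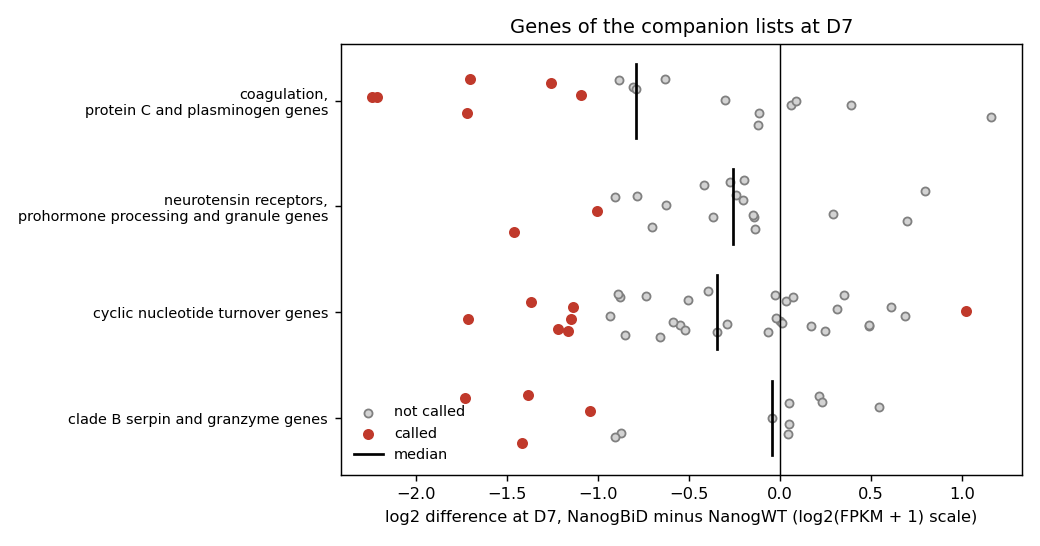
Difference in log2(FPKM + 1) between NanogBiD and NanogWT at D7 for each tested gene of the 4 companion lists, with called genes in red and the list median as a bar. The medians lie at -0.79, -0.26, -0.35 and -0.04 from the top, and 1 called gene, Npr1, lies above 0.

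Of 43 genes of cyclic nucleotide turnover 35 were tested, and their median was close to that of all genes at D5 (-0.06) and lower at D7 (-0.35). The calls lower and higher were 3 and 2 at D5, 6 and 1 at D7 and 8 and 5 at D12. Among all genes tested the shares on these days were 3.23%, 4.6% and 9.91% lower and 3.2%, 5.76% and 13.4% higher. Pde1b was at 0.682 and 0.756 FPKM at D7 (adjusted p = 0.864) and was higher with NanogBiD at D12 (7.78 and 2.48, log2 difference 1.33, adjusted p = 1.35e-05), while Pde1c did not pass the filter. The called genes with the largest differences at D7 were adenylyl cyclases, which make cAMP, namely Adcy1 (15.2 and 52.3, -1.72, adjusted p = 1.47e-06), Adcy2 (2.75 and 8.65, -1.37, adjusted p = 8.13e-06) and Adcy9 (1.99 and 5.96, -1.22, adjusted p = 0.000227). On the cGMP side Gucy1a2, a subunit of soluble guanylyl cyclase, was at 3.47 and 8.92 (-1.17, adjusted p = 0.0305) and Prkg2, a cGMP-dependent kinase, at 0.524 and 2.39 (-1.15, adjusted p = 0.00216). The Gucy1a2 call was lost when NanogBiD D7 replicate 1 or either NanogWT D7 replicate was left out.

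Of 37 clade B serpins and granzymes 13 were tested. The calls were 5 lower and 0 higher at D5, 4 and 0 at D7 and 3 and 0 at D12. Among all genes tested 3.23%, 4.6% and 9.91% were called lower and 3.2%, 5.76% and 13.4% higher. The list medians were -0.60, -0.04 and -0.11, beside 0.08, 0.08 and 0.17 over all genes tested. Serpinb8 (6.33 and 23.4 FPKM, log2 difference -1.73, adjusted p = 1.17e-06) and Serpinb1a (9.25 and 26.7, -1.42, adjusted p = 0.00122) were lower with NanogBiD at D7, and both were also called lower at D5 and at D12. Serpinb3a and Serpinb3b, which are close copies so that their split is uncertain, were at 3.45 and 2.54 with NanogWT at D5 and at 0.0190 and 0.0537 with NanogBiD, and Serpinb7 was at 1.69 with NanogWT and 0.190 with NanogBiD. With NanogBiD these levels were under the 1 FPKM of the filter, so the calls of Serpinb3a, Serpinb3b and Serpinb7 are given as a description. Without NanogWT D7 replicate 2 the D7 calls of Serpinb3a and Serpinb3b were lost. Unlike Serpinb9, none of these was higher with NanogWT at D12 than at D7 by mean level. Of the Serpinb9 copies tested, Serpinb9b was not called on the days compared (adjusted p = 0.764, 0.455 and 0.475) and Serpinb9e was at 0.915 and 0.0785 at D12 (0.82 on the log2(FPKM + 1) scale, adjusted p = 3.62e-05), which is under the limit of 1 on a scale that understates differences this low.

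Markers of other cells were counted in the same way. Beside these counts, 3.23%, 4.6% and 9.91% of all genes tested were called lower at D5, D7 and D12, and 3.2%, 5.76% and 13.4% higher. Of 12 fibroblast markers 5 were lower and 0 higher at D5, 4 and 0 at D7 and 11 and 0 at D12. The D5 count was 2 without NanogBiD D5 replicate 1, NanogBiD D5 replicate 2 or NanogWT D5 replicate 1, and 3 without NanogWT D5 replicate 2. The D7 count was 1 without NanogBiD D7 replicate 2 and 2 without NanogWT D7 replicate 1. Of 8 pluripotency markers 1, 6 and 8 were higher and 0 lower. In mES the trophoblast markers summed to 55.2 FPKM and the leukocyte and macrophage markers to 52.2, so neither list was particular to its cell type here. Of the 6 leukocyte and macrophage markers tested 0 were called on the 3 days. Of 5 trophoblast markers 0, 3 and 3 were higher, of 5 parietal and primitive endoderm markers 2, 1 and 1 were higher and 0, 0 and 2 lower, and of 6 neuroendocrine markers 1, 0 and 3 were higher. Their part in the levels of the members was not tested.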

How the data were processed

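RNA-seq libraries were made from mRNA. Per the submitters' processing notes and the study's methods, the authors used Trim Galore 0.6.4, HISAT2 2.2.1 (mm10) and StringTie 2.2.1. Their deposited values are in FPKM, per gene and per transcript, with replicates kept apart. Annotation and strand setting are not given in the sources used here. Absolute depth is unknown, and relative depth was read from the steps of the lowest values. The GFOLD comparisons of the authors were not used.

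FPKM are not counts, so log2(FPKM + 1) was tested with limma 3.58.1 in R 4.3.3 (trend, 1 mean per group, two-sided, Benjamini-Hochberg over all genes) on genes of at least 1 FPKM in at least 2 libraries, which left 16915 genes in 33 libraries, 13312 in 14 samples and 12456 in 12 iPSC samples. This scale understates changes of low genes. Called means an adjusted p under 0.05 and a difference of at least 1 in size on this scale. The fit was tested on simulated data. Other steps used Python 3.11.15.

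The members, companion lists and tests were chosen with earlier results of these data known. Named genes are the members, the 5 genes most like each, up to 5 called genes of each companion list with the largest difference at D7, Ntsr1, Ntsr2, Sort1, Procr, F3, Pde1b, Pde1c and the tested Serpinb9 copies. Npr1, Pros1, F2r, the endothelial markers named and the neighbours on the chromosome were chosen after their values were seen. Alternatives were a pseudocount of 0.1, no filter, scaling to TPM, quantile normalization, the compared groups alone, the replicate number as a block, and leaving out libraries. Promoter windows are from RefSeq.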

Additional observations from a re-analysis of the deposited data

Results flagged for a closer look

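In 9 groups of iPSC values of the members, 5 held a sample far from the others by Dixon's ratio. Chance flags about 1 group in 20, but the 5 of 9 cannot be set against that, since some groups share samples and 2 hold 1 value above 0 among zeros. Sample 9 of NanogBiD iPSC1 stood apart for Thbd (10.1 FPKM) and for Serpinb9 (1.69 FPKM) among the 6 NanogBiD iPSC samples, and it also held the highest fibroblast marker sum of the iPSC samples, 1402 FPKM. Sample 3 of NanogWT iPSC1 stood apart for Thbd (2.74 FPKM) among the 6 NanogWT iPSC samples, with the second highest marker sum, 438 FPKM. The part of the fibroblast markers in these values was not tested. For Pde1a the ratio is then at its maximum by arithmetic, 0.0190 FPKM in sample 4 of NanogBiD iPSC1 and 0.0197 FPKM in sample 1 of NanogWT iPSC1.

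A difference of the combination effect between the iPSC lines was not called by the interaction term in limma (Thbd 1.15, SE 1.00, adjusted p = 0.951, and Serpinb9 0.56, SE 0.44, adjusted p = 0.951), with wide errors.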

How the results depend on the processing

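Of 728 values under an alternative, 636 were labelled as kept. For tested differences this meant the same direction and side of the threshold. For the members' differences by day it meant a shift within the spread of replicates. Counts had to stay within a set ratio of the reported count. The replicate block could not change the members' differences by day or the counts of members lower, so those values were kept by arithmetic. The 54 values of iPSC against MEF were all kept, those of Pde1a being fixed by the filter. Members lower by at least 1 (log2) with NanogBiD at D0, none as reported, were 2 with a pseudocount of 0.1 and 1 with TPM or quantile normalization. At D1, 1 as reported, they were 2 with a pseudocount of 0.1. For D0 against MEF, Nts was -0.24 with a pseudocount of 0.1, -0.047 with TPM, -0.0039 with quantile normalization and -0.10 to 0.19 without single libraries, all uncalled. Pde1a was called at -1.27 with a pseudocount of 0.1 and at -1.14 with TPM, and ranged from -1.42 to -0.19 without single libraries. Thbd ranged from -1.10 to 0.072. For NanogBiD against NanogWT iPSC, leaving out single samples gave -0.19 to 0.59 for Thbd and -0.068 to 0.27 for Serpinb9. Genes called with a pseudocount of 0.1 were 1651 at D5 (1088 as reported), 2668 at D7 (1752) and 2534 for D0 against MEF (1440), and 748 for the last with the compared groups alone, a fit with fewer libraries. Companion genes higher at D7, 1 as reported, were 3 with a pseudocount of 0.1, 2 with TPM, 0 with quantile normalization, 2 with the compared groups alone and 0 to 2 without single libraries. Neurotensin system genes called at D7, 2 as reported, were 4 with a pseudocount of 0.1, 0 with the compared groups alone and 1 without NanogWT D7 replicate 1. Of the 20 most like genes, 5 stayed with Spearman rho, 13 with the time course alone and 7 without the NanogWT libraries of D8 to D12. The cause of these changes was not tested.

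Of the calls of D0 against MEF 51.5% were higher, and 41.4% with TPM. Quantile normalization moved the median of all genes at D12 by -0.12, and TPM that of iPSC against MEF by -0.19. Same-numbered replicates deviated together at r = -0.064 to 0.395 over 7 days and passed 0.1 on 4, so the numbers were not taken as pairs. With the replicate number as a block, 1111 genes were called at D5, 1756 at D7 and 3957 at D12, and no call of a member changed. Depth limits the Nts values with NanogBiD.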
